A study of Mus musculus with 18 samples.

Results

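Fatty acid oxidation in the mitochondrion and the peroxisome is described here through 31 genes of 21899 gene IDs in the deposited tables of inguinal white adipose tissue, a subcutaneous fat depot. The genes were taken by symbol, as the enzymes, carriers and regulators that activate fatty acids, carry them into the mitochondrion, shorten them there or in the peroxisome, and pass their electrons on. The rule goes by gene name and function and uses no measured value, but the set was drawn up with earlier results of these data known. All 4 groups were male C57BL/6J mice, an inbred strain, injected subcutaneously with LLC cells, the Lewis lung carcinoma line of that strain, or with PBS, the buffered saline in which no tumour cells were given. Tissue was taken at day 7, which the labels call pre-cachexia, or at day 21, which they call cachexia, tumour-related loss of fat and muscle. The groups were day 7 PBS (n = 4), day 7 LLC (n = 5), day 21 PBS (n = 4) and day 21 LLC (n = 5), 18 libraries in all. The sources used here do not give the age of the mice, their food intake or whether a library came from 1 mouse. P-values therefore measure the spread between these libraries, which may be partly technical.

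In mitochondrial oxidation a fatty acid is first joined to coenzyme A, exchanged onto carnitine at the outer membrane, carried across the inner membrane and joined to coenzyme A again. A repeated spiral of dehydrogenation, hydration, a further dehydrogenation and thiolysis then cuts off acetyl-CoA, and the electron transfer flavoprotein takes electrons from the first step to the respiratory chain. Peroxisomes start the oxidation of very long and branched chains, and the nuclear receptor PPAR-alpha drives many of the genes. White adipocytes mainly store and release fatty acids, whereas brown and beige adipocytes burn them for heat.

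Total counts ran from 14566155 to 18969387 per library, and all 31 genes passed the filter on low counts in each comparison. The 15 white adipocyte markers were all detected, with summed levels of 29337 to 77135 CPM (counts scaled to library size, here by TMM over all 18 libraries). Some libraries stood apart from the rest of their group. The 19 skeletal muscle markers summed to 9391 CPM in day 7 PBS library 3, 2210 CPM in day 7 LLC library 3, 6902 and 1552 CPM in day 21 PBS libraries 1 and 2, and 2981 and 818 CPM in day 21 LLC libraries 2 and 5. In the other 12 libraries they summed to 18.95 to 198 CPM. The 14 progenitor and fibroblast markers summed to 3740 to 5696 CPM in day 21 PBS libraries 1 to 3 but to 19204 CPM in library 4, close to the 15721 to 23685 CPM of the day 7 PBS libraries. Transcripts of the mitochondrial genome took 8.45% and 9.34% of the counts in day 21 LLC libraries 1 and 3, and 14.9% to 20.8% in libraries 2, 4 and 5.

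Levels of different genes were compared per transcript length, in the deposited TPM, in the day 7 PBS group. Acsl1, which activates long-chain fatty acids, stood highest, with a median of 856 TPM (825 to 1014). Etfb, a subunit of the electron transfer flavoprotein, followed at 499.97 TPM (382 to 549), and Hadh, the short-chain hydroxyacyl-CoA dehydrogenase of the spiral, at 428 TPM (371 to 438). The ranges of Etfb and Hadh overlapped. In the middle of the order stood Cpt2, the inner carnitine palmitoyltransferase, at 126 TPM (122 to 129). At the low end were Fabp3, the heart-type fatty acid binding protein, at 0.526 TPM, Slc27a2, a very-long-chain acyl-CoA synthetase, at 0.667 TPM, Ppara, which encodes PPAR-alpha, at 2.32 TPM, and Cpt1b, the muscle and brown fat form of the outer carnitine palmitoyltransferase, at 2.52 TPM. Cpt1a, the form found in liver and many other tissues, had a median of 27.5 TPM there. The Cpt1a level divided by the Cpt1b level, both in TPM, ranged from 0.990 to 142 over the 18 libraries, the lowest in day 7 LLC library 5 and the highest in day 7 PBS library 4. The low genes rested on few reads: counts per library were 1 to 106 for Slc27a2, 0 to 73 for Fabp3 and 6 to 453 for Cpt1b. The single count of 0, Fabp3 in day 21 LLC library 3, allows up to 3 counts, or 0.148 CPM.

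Hadha and Hadhb encode the alpha and beta subunits of the trifunctional protein, which carries out the last 3 steps of the spiral on long chains. They lie head to head on chromosome 5 (GRCm38), Hadha on the minus strand at chr5:30118304-30155162 and Hadhb on the plus strand at chr5:30155248-30184593. Their annotated starts are 85 bases apart, so the stretch between them, chr5:30155163-30155247, lies upstream of both. It is printed because the results set the levels of both genes side by side, from the plus strand and 5′ to 3′, with the GC-box letters GGGCGG in capitals.
Hadha and Hadhb shared upstream stretch: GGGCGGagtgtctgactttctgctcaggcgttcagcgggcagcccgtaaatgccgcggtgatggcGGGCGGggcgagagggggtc
The Hadhb level divided by the Hadha level, both in CPM, ranged from 1.02 to 1.48 over the 18 libraries. The group medians of that ratio were 1.11 in day 7 PBS, 1.21 in day 7 LLC, 1.26 in day 21 PBS and 1.12 in day 21 LLC. At day 7 the ratio was 1.18 to 1.32 in LLC and 1.02 to 1.18 in PBS libraries, and the groups did not overlap, by a small margin. A narrow range is not particular to this pair. The Etfb level divided by the Etfa level, from genes on chromosomes 7 and 9, ranged from 0.664 to 1.01 in CPM.

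RefSeq windows of 250 bases before to 50 bases after the start (GRCm38.p6) matched 25 of the 31 genes. Both strands were searched for AGGTCA, the single site bound by nuclear receptors such as PPAR-alpha, for the pair of such sites with 1 base between them that PPAR-alpha binds with its partner, for TNAAGGTCA, the extended site bound by the estrogen-related receptors, and for the GC box GGGCGG. The single site stood in the windows of 5 matched genes, Acadm, Acadvl, Cpt1a, Echs1 and Slc27a2, and in 16.3% of all 32851 windows. The extended site includes the letters of the single site. The spaced pair and the extended site stood in the windows of 0 matched genes, against 0.0396% and 1.28% of all windows. The GC box stood in the windows of 18 matched genes and in 35.7% of all windows. These matches describe letters only. For 4 genes the part of the window upstream of the RefSeq start that no annotated exon covers is printed, 5′ to 3′ in the direction of the gene, with single sites and GC boxes (in either direction) in capitals. Acads, Cpt2 and Acaa1a were among the 5 genes whose day 21 groups did not overlap, and Cpt1a was 1 of the 2 genes with a day 21 log2 change above 0.
Acads (chr5:115119347-115119596, minus strand): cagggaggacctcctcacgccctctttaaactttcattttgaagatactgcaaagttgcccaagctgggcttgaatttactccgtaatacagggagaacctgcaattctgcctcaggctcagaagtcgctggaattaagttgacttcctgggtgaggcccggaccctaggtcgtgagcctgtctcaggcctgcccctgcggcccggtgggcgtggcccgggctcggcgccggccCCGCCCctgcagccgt
Cpt2 (chr4:107923611-107923839, minus strand): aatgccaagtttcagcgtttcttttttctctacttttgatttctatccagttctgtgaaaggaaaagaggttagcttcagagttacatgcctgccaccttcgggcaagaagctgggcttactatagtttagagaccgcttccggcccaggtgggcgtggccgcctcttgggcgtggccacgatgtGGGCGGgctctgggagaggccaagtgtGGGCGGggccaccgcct
Acaa1a (chr9:119341160-119341293, plus strand): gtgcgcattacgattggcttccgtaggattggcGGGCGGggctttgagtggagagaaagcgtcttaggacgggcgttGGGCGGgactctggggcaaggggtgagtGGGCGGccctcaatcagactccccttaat
Cpt1a (chr19:3323051-3323284, plus strand): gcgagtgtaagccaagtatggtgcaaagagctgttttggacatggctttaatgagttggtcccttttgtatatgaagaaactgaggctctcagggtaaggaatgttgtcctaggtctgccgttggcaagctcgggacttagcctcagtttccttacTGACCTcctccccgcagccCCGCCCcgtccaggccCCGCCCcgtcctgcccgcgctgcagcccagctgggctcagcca
Among these 4 stretches, that of Cpt1a held the single site, once, and all 4 held the GC box. The 4 genes were picked by their day 21 result. Acadm, Acadvl, Echs1 and Slc27a2, whose windows also held the single site, had day 21 log2 changes below 0, for Slc27a2 by less than its standard error. Acsl5, the other gene above 0 at day 21, had neither the single site nor the GC box in its window. Whether either site goes with the direction of change was not tested. The stretches of Acaa1a and Cpt1a lie inside the spans that GENCODE gives these genes, which start further upstream.

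**Figure D1:**
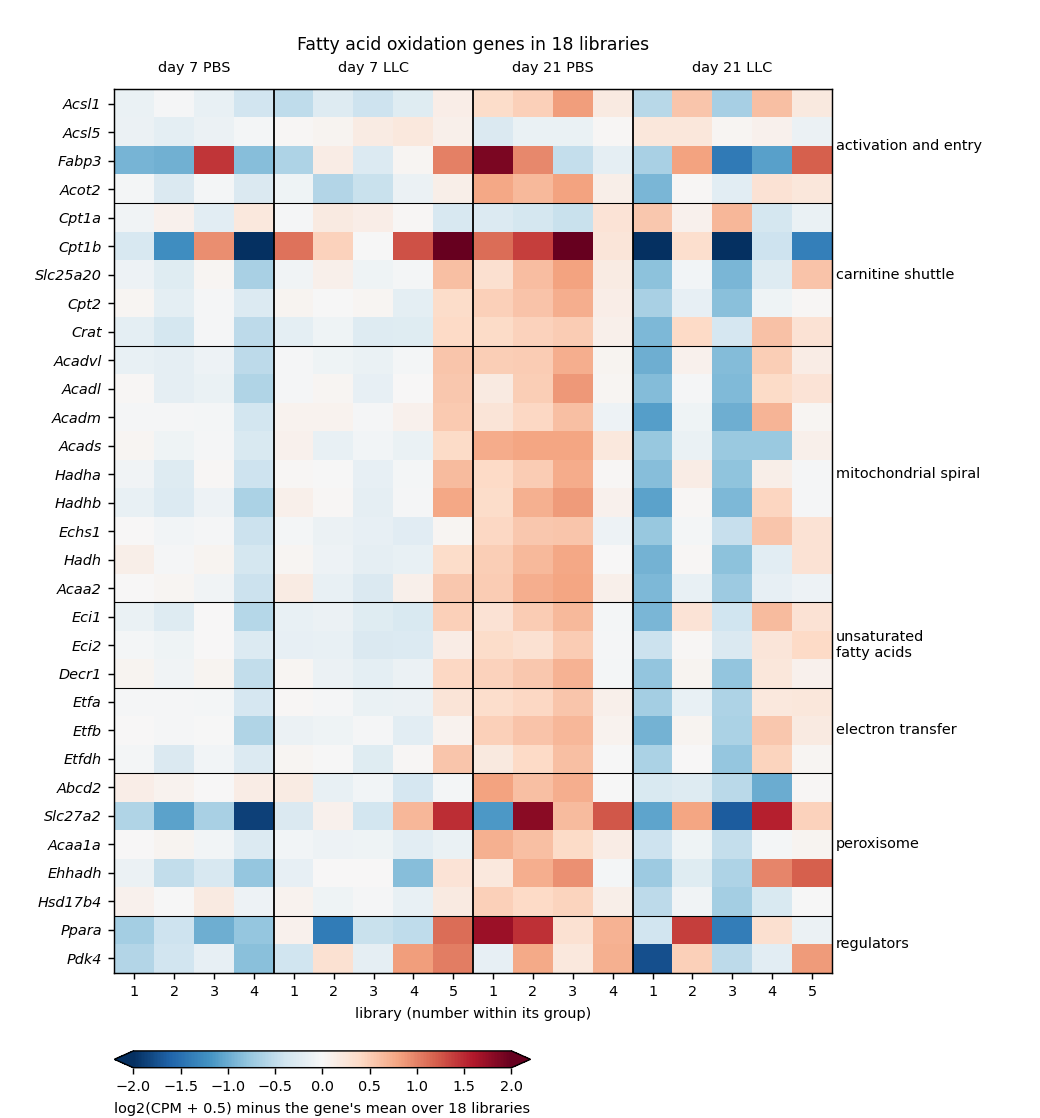
The level of each of the 31 genes (rows, ordered by role) in each of the 18 libraries (columns, numbered within their group), as log2(CPM + 0.5) minus the gene's mean over all libraries. Red is above and blue below that mean. For most rows day 21 PBS libraries 1 to 3 are red and day 21 LLC libraries 1 and 3 blue, while Cpt1a shows the opposite.

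At day 7 the genes of the mitochondrial spiral lay slightly above PBS in LLC tissue, and none of the 31 genes passed the test. The log2 change was above 0 for 24 of the 31 genes, with a median of 0.20, while 51.1% of all 13445 genes tested lay above 0 and their median was 0.0045. In bulk tissue, fewer cells of a type and less RNA per cell cannot be told apart. By edgeR's quasi-likelihood test with Benjamini-Hochberg adjustment at 0.05, 0 of the 31 genes were called, and 0.00744% of all genes tested were called. At an unadjusted p under 0.05, 5 of the 31 genes were higher and 0 lower, while 4.86% of all genes were higher. DESeq2 also called 0 of the 31. The smallest adjusted p was that of Acsl5.

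Acsl5 encodes a long-chain acyl-CoA synthetase of the outer mitochondrial membrane and the endoplasmic reticulum. Its level was 72.3, 68.2, 72.1 and 76.7 CPM in the 4 day 7 PBS libraries and 80.1, 81.2, 87.9, 90.9 and 83.8 CPM in the 5 day 7 LLC libraries. In CPM each LLC library lay above each PBS library, but in the deposited TPM the groups overlapped, with 30.9 to 47.6 TPM in PBS and 35.9 to 50.5 TPM in LLC. The log2 change was 0.23 ± 0.06 (SE, adjusted p = 0.399) by edgeR. Slc27a2 activates very long chains, at the peroxisome and endoplasmic reticulum. It stood at 0.851, 0.478, 0.801 and 0.0585 CPM in day 7 PBS and at 1.17, 1.66, 1.08, 2.75 and 5.20 CPM in day 7 LLC. The groups did not overlap, and the spread within LLC was wide. Its log2 change was 2.11 ± 0.63 (SE, adjusted p = 0.408) by edgeR. Acsl5 and Slc27a2 were the 2 of the 31 genes whose LLC libraries all lay above the PBS libraries in CPM, and 1.18% of all genes tested did so.

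Pdk4 encodes a pyruvate dehydrogenase kinase, which holds back glucose oxidation when fatty acids are burned. Its day 7 level was 94.6, 109, 127 and 79.1 CPM in PBS and 107, 176, 126, 254 and 288 CPM in LLC. LLC libraries 4 and 5 were high, and libraries 1 and 3 lay within the PBS range. edgeR gave a log2 change of 0.90 ± 0.28 (SE, adjusted p = 0.429). Ppara stood at 3.60, 4.42, 2.83 and 3.33 CPM in day 7 PBS and at 6.43, 1.99, 4.32, 4.12 and 13.8 CPM in day 7 LLC. Library 5 was far above the rest, and library 2 lay below all PBS libraries. The log2 change was 0.78 ± 0.46 (SE, adjusted p = 0.7) by edgeR.

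Cpt1b had the second largest day 7 log2 change of the 31 genes, 1.60 ± 0.70 (SE, adjusted p = 0.578) by edgeR. Its day 7 levels were 5.04, 2.45, 12.7 and 0.351 CPM in PBS and 14.2, 9.02, 6.42, 16.2 and 31.8 CPM in LLC. The groups overlapped through PBS library 3, which had the highest summed muscle markers of all 18 libraries. Without the libraries of high muscle marker level, 0 of the 31 genes were called. The 3 other carriers with a day 7 log2 change of at least its standard error were Slc25a20, the carnitine-acylcarnitine carrier, at 0.35 ± 0.17, Crat, carnitine acetyltransferase, at 0.21 ± 0.15, and Cpt2, at 0.18 ± 0.11.

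All 9 genes of the spiral had a day 7 log2 change above 0, from 0.02 to 0.46 with a median of 0.27. The largest was that of Hadhb, 0.46 ± 0.19 (SE, adjusted p = 0.56) by edgeR, with levels of 339, 309, 352 and 241 CPM in PBS and 403, 380.02, 330.1, 368 and 644 CPM in LLC. LLC library 5 was far above all others and PBS library 4 far below, and LLC library 3 lay within the PBS range. Hadha stood at 302, 263, 323 and 236 CPM in PBS and 322, 315, 280.3, 308 and 489 CPM in LLC, with the same pair of libraries at the ends. The dehydrogenases of the first step had log2 changes of 0.31 ± 0.15 for Acadvl (very long chains), 0.32 ± 0.16 for Acadl (long chains), 0.27 ± 0.12 for Acadm (medium chains) and 0.13 ± 0.12 for Acads (short chains). The lowest adjusted p among the 9 was 0.56.

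Among the remaining genes, 7 had a day 7 log2 change of at least its standard error. These were Hadha, at 0.29 ± 0.16, Acaa2, the thiolase of the spiral, at 0.21 ± 0.16, and Ehhadh, the peroxisomal bifunctional enzyme, at 0.31 ± 0.20. Etfdh, which passes electrons to ubiquinone, had 0.27 ± 0.14, Eci1, an isomerase for unsaturated chains, had 0.20 ± 0.17, and Etfa, a flavoprotein subunit, had 0.11 ± 0.10. Abcd2, a peroxisomal importer of very long chains, had -0.16 ± 0.10. For the other 11 of the 31 genes the log2 change was smaller than its standard error, with values from -0.07 to 0.12.

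The day 7 values turned on a few libraries. LLC library 5 was the highest of the 9 day 7 libraries for 26 of the 31 genes, and PBS library 4 the lowest for 20. The progenitor and fibroblast markers summed to 7601 CPM in LLC library 5 and 23685 CPM in PBS library 4, against 15721 to 20421 CPM in the other day 7 libraries. Macrophage markers summed to 1362 CPM in LLC library 5 and 2811 CPM in PBS library 4, the lowest and highest of day 7. Without both libraries, an alternative chosen after seeing the data, the median log2 change of the 31 genes was -0.01, with 15 above 0 and 16 below. The shift was also smaller without either library alone. Without LLC library 5 the median was 0.07, with 22 above 0, and without PBS library 4 it was 0.11, with 21 above 0. A fit with the replicate number as a block, which leaves out LLC library 5, gave a median of 0.08, with 23 above 0. Without the libraries of high muscle marker level the median was 0.30, with 27 above 0. With a score of macrophage and progenitor markers, also added after seeing the data, it was 0.12, with 22 above 0.

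At day 21 the levels lay lower in LLC than in PBS tissue for 29 of the 31 genes, by most in Cpt1b of the carnitine shuttle and Acads of the spiral, and none passed the test. The median log2 change was -0.64, while 51.9% of all 13564 genes tested lay above 0 and their median was 0.02. The exceptions were Cpt1a and Acsl5. By edgeR's quasi-likelihood test with Benjamini-Hochberg adjustment, 0 of the 31 genes were called, and 0.0885% of all genes were called. At an unadjusted p under 0.05, 14 of the 31 genes were lower and 0 higher, while 11.5% of all genes were lower. Limma on log2(TPM + 1) called 0 of the 31, whereas DESeq2 called 7 lower, Abcd2, Acaa1a, Acaa2, Acads, Cpt1b, Cpt2 and Hsd17b4, and 4.27% of all genes lower. With a muscle score 2 were called lower, Acaa1a and Acads, with 0.391% of all genes. A fit of all 18 libraries, which takes the spread of both days, called 11 lower, the 7 of DESeq2 with Acot2, Etfa, Hadh and Hadha, and 8.54% of all genes lower. The median log2 change was -0.63 by DESeq2 and -0.62 in the fit of all 18 libraries.

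**Figure D2:**
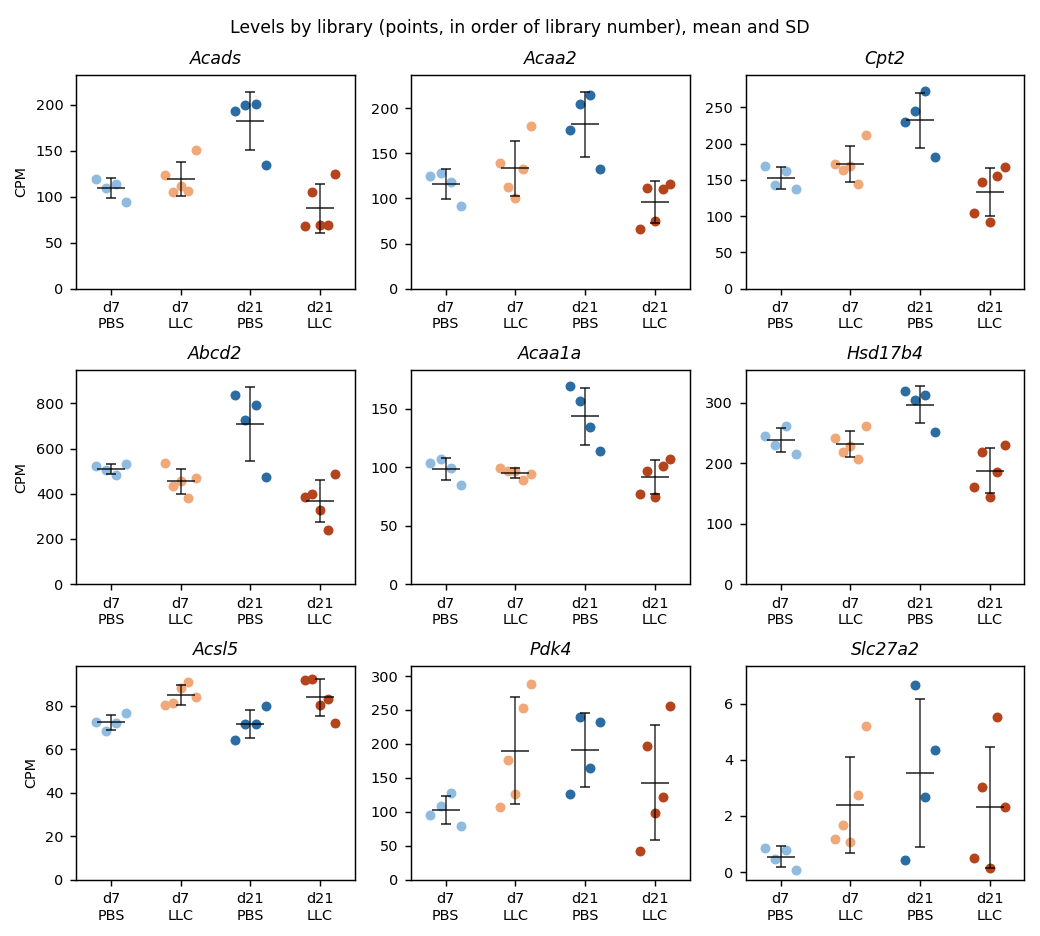
CPM in each library (points, left to right by library number) of 9 of the genes in day 7 (d7) and day 21 (d21) PBS and LLC tissue, with the group mean and SD. For Acads, Acaa2, Cpt2, Acaa1a and Hsd17b4 all 5 day 21 LLC libraries lie below all 4 day 21 PBS libraries, and for Acsl5 and Slc27a2 all day 7 LLC libraries lie above day 7 PBS.

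Acads, the dehydrogenase that starts each turn on short chains, had the smallest p of the 31 at day 21. Its level was 194, 200.04, 201 and 135 CPM in the 4 day 21 PBS libraries and 68.3, 106, 68.8, 68.9 and 125 CPM in the 5 day 21 LLC libraries. All LLC libraries lay below all PBS libraries, with libraries 1, 3 and 4 at one low level, and PBS library 4 stood well below the other PBS libraries. The log2 change was -1.08 ± 0.22 (SE, adjusted p = 0.0638) by edgeR, an LLC level of 0.472 times that in PBS. Acaa2, the thiolase that ends each turn, stood at 176, 205, 214 and 133 CPM in PBS and 66.0, 112, 74.9, 110.4 and 116 CPM in LLC. Again the groups did not overlap, and LLC libraries 1 and 3 were lowest. Its log2 change was -0.95 ± 0.21 (SE, adjusted p = 0.0728) by edgeR.

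The rest of the spiral lay lower in LLC tissue by smaller amounts, with overlapping groups. Hadha stood at 418, 448, 530.1 and 321 CPM in PBS and 176, 349.6, 180.3, 342 and 312 CPM in LLC. Hadhb stood at 484, 612, 678 and 400.5 CPM in PBS and 179, 382, 201, 505 and 371 CPM in LLC. For both genes LLC libraries 1 and 3 lay far below the rest, and LLC libraries reached the level of PBS library 4. Their log2 changes were -0.68 ± 0.26 and -0.75 ± 0.31, with adjusted p of 0.158 and 0.192 by edgeR. Hadh had a log2 change of -0.79 ± 0.28 (adjusted p = 0.142 by edgeR), Acadvl of -0.60 ± 0.31, Acadl of -0.58 ± 0.31, Acadm of -0.48 ± 0.35 and Echs1, the enoyl-CoA hydratase, of -0.40 ± 0.27. The 4 chain-length dehydrogenases differed in how far LLC library 4 departed from libraries 1 and 3. Acadm reached 667 CPM in library 4, above all PBS libraries, while Acads stood at 68.9 CPM there, as low as in libraries 1 and 3.

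In the carnitine shuttle Cpt2 stood at 229, 246, 272 and 181 CPM in day 21 PBS and 105, 148, 92.4, 156 and 168 CPM in day 21 LLC. The groups did not overlap, and LLC libraries 1 and 3 were lowest. edgeR gave a log2 change of -0.82 ± 0.20 (SE, adjusted p = 0.0786). Cpt1b stood at 14.6, 17.7, 27.4 and 7.68 CPM in PBS and 1.03, 8.30, 0.742, 4.68 and 2.200 CPM in LLC. LLC library 2 passed PBS library 4, and LLC libraries 1 and 3 were close to 1 CPM. Its log2 change, -2.34 ± 0.68 (SE, adjusted p = 0.104) by edgeR, was the largest of the 31. Slc25a20 had a log2 change of -0.72 ± 0.30 and Crat one of -0.29 ± 0.28.

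Cpt1a had a day 21 log2 change above 0, which did not pass the test. Its level was 50.6, 47.8, 44.97 and 73.9 CPM in day 21 PBS and 89.3, 64.9, 96.9, 47.8 and 56.0 CPM in day 21 LLC. LLC libraries 1 and 3 were the highest of all 18 for Cpt1a, and LLC library 4 lay within PBS libraries 1 to 3. The log2 change was 0.37 ± 0.24 (SE, adjusted p = 0.372) by edgeR. Acsl5 stood at 63.9, 71.4, 71.7 and 79.6 CPM in PBS and 91.7, 92.2, 80.3, 82.8 and 72.1 CPM in LLC. The groups overlapped through PBS library 4 and LLC library 5, and the log2 change was 0.21 ± 0.11 (SE, adjusted p = 0.273) by edgeR.

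The 5 peroxisomal genes lay lower at day 21, with a median log2 change of -0.68. Acaa1a, the peroxisomal thiolase, stood at 169.6, 156, 135 and 114 CPM in PBS and 77.3, 96.9, 74.3, 101 and 107 CPM in LLC. Hsd17b4, the bifunctional enzyme of the branched and very-long-chain route, stood at 319.6, 305, 313 and 251 CPM in PBS and 159.98, 219, 144, 186 and 230.3 CPM in LLC. For both genes the groups did not overlap. The log2 changes were -0.68 ± 0.16 (SE, adjusted p = 0.0751) for Acaa1a and -0.68 ± 0.16 (SE, adjusted p = 0.0758) for Hsd17b4 by edgeR. Abcd2, which carries very-long-chain acyl-CoA into the peroxisome, stood at 839, 727, 794 and 476 CPM in PBS and 386, 399.6, 329, 239 and 487 CPM in LLC. PBS library 4 and LLC library 5 overlapped by a small margin, and LLC library 4, not 1 or 3, was lowest. Its log2 change was -0.97 ± 0.24 (SE, adjusted p = 0.078) by edgeR. Ehhadh, the bifunctional enzyme of the straight-chain route, stood at 94.4, 136, 155 and 80.0 CPM in PBS and 49.2, 69.3, 53.2, 162 and 188 CPM in LLC. LLC libraries 4 and 5 lay above all PBS libraries and libraries 1 to 3 below them. Ehhadh, Slc27a2, Fabp3 and Pdk4 were the 4 of the 31 genes whose day 21 log2 change was smaller than its standard error.

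Among the genes of activation and entry, Acsl1 stood at 2552, 2735, 3509 and 2240.3 CPM in day 21 PBS and 1344, 2902, 1243, 3002 and 2252 CPM in day 21 LLC. LLC libraries 2, 4 and 5 lay within the PBS range, and libraries 1 and 3 far below it. edgeR gave a log2 change of -0.38 ± 0.31 (SE, adjusted p = 0.465). Acot2, a mitochondrial acyl-CoA thioesterase, had a log2 change of -0.71 ± 0.25. The electron transfer genes Etfa, Etfb and Etfdh had log2 changes of -0.54 ± 0.22, -0.55 ± 0.29 and -0.45 ± 0.25. The enzymes that prepare unsaturated chains, Eci1, Eci2 and Decr1, had log2 changes of -0.32 ± 0.29, -0.30 ± 0.19 and -0.64 ± 0.26. The lowest adjusted p by edgeR was 0.142 among the activation genes, 0.18 among the electron transfer genes and 0.177 among the enzymes for unsaturated chains. Ppara stood at 21.1, 17.6, 7.63 and 10.1 CPM in PBS and 4.52, 16.7, 2.03, 7.66 and 5.53 CPM in LLC, with LLC libraries 2 and 4 inside the PBS range. Its log2 change was -0.98 ± 0.54 (SE, adjusted p = 0.295) by edgeR.

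**Figure D3:**
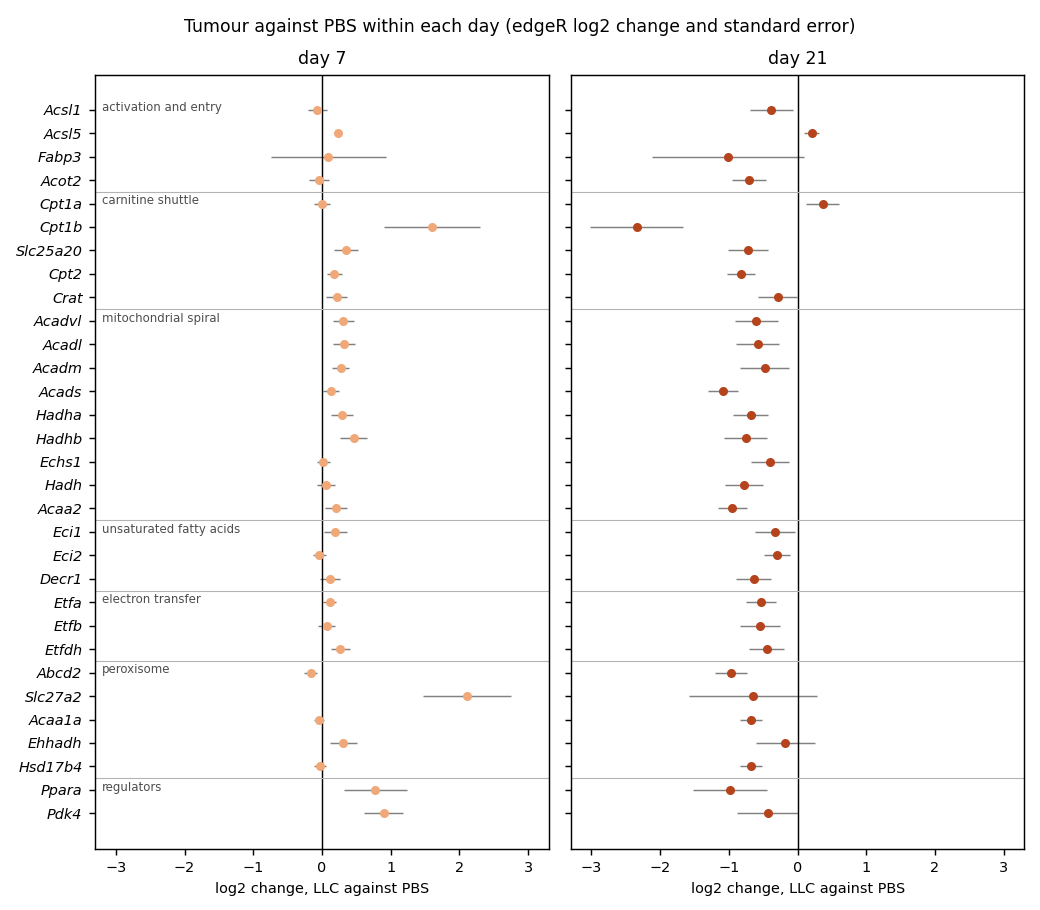
The log2 change of each gene in LLC against PBS tissue at day 7 (left) and day 21 (right), with its standard error from edgeR, in order of role. At day 7 the points of the spiral lie between 0.02 and 0.46, and at day 21 between -1.08 and -0.40. Cpt1a and Acsl5 are the 2 points to the right of 0 at day 21.

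Acaa1a, Acaa2, Acads, Cpt2 and Hsd17b4 were the 5 of the 31 genes whose day 21 LLC libraries all lay below the PBS libraries, and 4.47% of all genes tested did so. The day 21 values rested unequally on the libraries. LLC libraries 1 and 3 were the 2 lowest of all 18 libraries for 19 of the 31 genes and lay below all 4 PBS libraries for 28. LLC libraries 2, 4 and 5 all lay below all 4 PBS libraries for 5. The 31 genes together, a sum in which Acsl1 weighs most, came to 4578 and 4727 CPM in LLC libraries 1 and 3, while the 3 further LLC libraries reached 8477 to 9362 CPM and PBS libraries 7969 to 12183 CPM. Without both LLC libraries 1 and 3, an alternative chosen after seeing the data, the median log2 change was -0.28, 25 of the 31 genes lay below 0 and 0 were called. Without PBS library 4 alone, 6 of the 31 were called lower, Abcd2, Acaa1a, Acaa2, Acads, Cpt2 and Hsd17b4, with 3.49% of all genes called lower. Without all 3 libraries the median was -0.35 and 5 were called lower, Acaa1a, Acaa2, Acads, Acot2 and Cpt2, with 1.77% of all genes called lower.

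Markers of other cell types also differed between the day 21 libraries. The 12 macrophage markers summed to 340 to 513 CPM in PBS libraries 1 to 3, 2639 CPM in PBS library 4 and 1051 to 3631 CPM in LLC tissue, and 0 of the 12 passed the test. The 14 progenitor and fibroblast markers summed to 3740 to 19204 CPM in PBS and 3524 to 16890 CPM in LLC tissue, and 0 of the 14 passed. White adipocyte markers summed to 50082 to 64531 CPM in PBS tissue. In LLC tissue they summed to 29337 and 36696 CPM in libraries 1 and 3, and to 53590 to 77135 CPM in libraries 2, 4 and 5. The 8 B cell markers summed to 2142 CPM in LLC library 3 and 341 CPM in LLC library 1, against at most 216 CPM in the other 16 libraries, and 0 of 5 tested passed. The 6 mast cell markers summed to 17.9 to 35.9 CPM in PBS and 71.5 to 139 CPM in LLC tissue, and 4 of 5 tested rose, Cma1, Cpa3, Mcpt4 and Tpsb2, with log2 changes of 4.12 to 4.53 by edgeR. These calls were lost under 2, 4, 5 and 7 of 23 alternatives, in that order, and all 4 of them both without PBS library 1 and without the libraries of high muscle marker level. The 6 red cell markers summed to 354 to 861 CPM in PBS and 1269 to 4446 CPM in LLC tissue, and 1 of 6 rose. Of 9 endothelial markers 8 lay above 0, and 0 passed. A stromal score, the mean log2 CPM of the macrophage and progenitor markers, was added to the fit after seeing the data. With it the median day 21 log2 change of the 31 genes was -0.40. Of the 31 genes 0 were called, and of all 13564 genes tested 11 were. The part of these cell types in the result was not otherwise tested.

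**Figure D4:**
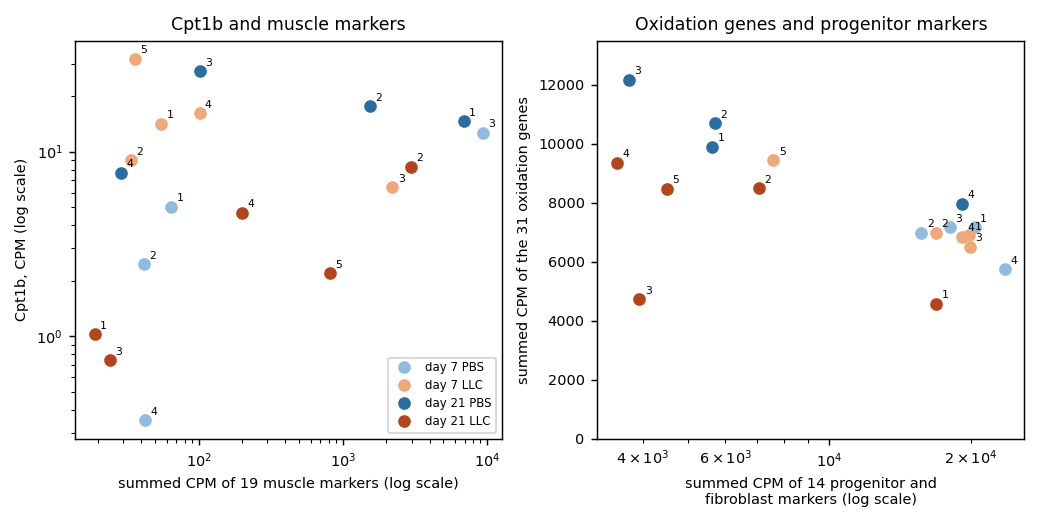
Left, Cpt1b (CPM, log scale) against the summed CPM of 19 muscle markers (log scale), and right, the summed CPM of the 31 genes against that of 14 progenitor and fibroblast markers (log scale), 1 point per library, numbered within its group. Cpt1b is highest in day 7 LLC library 5, where muscle markers sum to 36.0 CPM, and day 21 LLC libraries 1 and 3 lie lowest on the right at progenitor sums of 16890 and 3937 CPM.

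Cpt1b and Fabp3 are also abundant in skeletal muscle. Fabp3 stood at 0.196, 0.179, 3.08 and 0.234 CPM in day 7 PBS and 0.371, 0.966, 0.594, 0.866 and 2.18 CPM in day 7 LLC. It stood at 4.40, 2.08, 0.456 and 0.676 CPM in day 21 PBS and 0.344, 1.81, 0, 0.127 and 2.53 CPM in day 21 LLC. The top values lay in day 21 PBS library 1 and day 7 PBS library 3, the libraries with the highest muscle markers, and both groups overlapped at each day. Cpt1b was highest in day 7 LLC library 5 and day 21 PBS library 3, where muscle markers summed to 36.0 and 102 CPM. With a muscle score in the fit, the Cpt1b log2 change was -2.59 ± 0.65 (SE, adjusted p = 0.0801) at day 21 by edgeR. In day 7 LLC library 5 and day 21 PBS library 3 Ucp1, the uncoupling protein of thermogenic adipocytes, stood at 42.0 and 17.8 CPM. In other libraries Ucp1 and Cpt1b did not always go together, and the cell source of Cpt1b was not tested.

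Levels of thermogenic genes are given beside those of Cpt1b. Ucp1 stood at 0.851, 0.897, 0.985 and 0.0585 CPM in day 7 PBS and 12.2, 20.03, 35.3, 25.6 and 42.0 CPM in day 7 LLC, and it rose (log2 change 5.28, adjusted p = 0.00802 by edgeR). The call was lost under 6 of 22 alternatives, with an adjusted p of 0.0988, 0.0933 and 0.053 without day 7 PBS library 1, 2 or 3, 0.144 without the libraries of high muscle marker level, 0.0717 by limma on log2(TPM + 0.1) and 0.9996 in 1 fit of all 18 libraries. Its day 21 levels were 0.120, 4.15, 17.8 and 14.9 CPM in PBS and 0.393, 8.71, 0, 0.696 and 0.79995 CPM in LLC. All day 7 LLC libraries were above all day 7 PBS libraries, and the day 21 groups overlapped. Day 7 LLC library 3, with Ucp1 at 35.3 CPM, had the lowest Cpt1b of its group, 6.42 CPM. Day 21 PBS library 4, with Ucp1 at 14.9 CPM, had the lowest Cpt1b of its group, 7.68 CPM. In day 21 PBS library 1 Ucp1 was at 0.120 CPM and Cpt1b at 14.6 CPM. Otop1, the proton channel gene in the series title, stood at 9.56, 5.80, 8.93 and 5.61 CPM in day 7 PBS and 17.7, 14.1, 13.2, 17.8 and 19.2 CPM in day 7 LLC. It stood at 16.8, 25.7, 25.0 and 10.6 CPM in day 21 PBS and 3.44, 5.09, 0.247, 0.696 and 6.20 CPM in day 21 LLC. The groups did not overlap at either day, higher in LLC at day 7 and lower at day 21, with adjusted p of 0.325 and 0.099 by edgeR. Of the 15 thermogenic genes 13 had a log2 change above 0 at day 7, with a median of 0.59 and 1 called higher. All 15 had one below 0 at day 21, with a median of -0.97 and 0 called. The difference between the days passed for Otop1 (-3.78 ± 0.79, SE, adjusted p = 0.044) and Acot11, a thioesterase gene (-3.39 ± 0.70, SE, adjusted p = 0.042), by edgeR. These calls were lost under 17 and 19 of 31 alternatives, among them without any 1 of the day 7 libraries or of day 21 PBS libraries 1 to 3, with an adjusted p of at most 0.165 for Otop1 and 0.164 for Acot11.

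The difference between the tumour effects of the 2 days was tested in 1 fit of all libraries, as the day 21 log2 change minus the day 7 log2 change. It lay below 0 for 30 of the 31 genes, Cpt1a being the exception, with a median of -0.73. By edgeR 0 of the 31 genes passed, and 0.415% of all 13975 genes tested did. At an unadjusted p under 0.05, 19 of the 31 genes lay below 0 and 0 above, while 7.93% of all genes lay below 0. DESeq2 called 6 below 0, Acaa1a, Acaa2, Acads, Cpt1b, Cpt2 and Hsd17b4, with 1.91% of all genes. The differences nearest the threshold were those of Acads, -1.19 ± 0.26 (SE, adjusted p = 0.0571), Cpt2, -0.97 ± 0.24 (SE, adjusted p = 0.0701), and Acaa2, -1.13 ± 0.28 (SE, adjusted p = 0.0715), by edgeR. Without day 21 PBS library 4 and LLC libraries 1 and 3, 6 were called below 0, Abcd2, Acaa1a, Acaa2, Acads, Cpt2 and Hsd17b4, with 2.62% of all genes. Acads was the 1 called with a muscle score (0.236% of all genes) or a replicate block (0.273%). Cpt1b had the largest difference, -3.91 ± 1.10 (SE, adjusted p = 0.093) by edgeR. Pdk4 had a difference of -1.31 ± 0.57, Ppara of -1.74 ± 0.77, Slc27a2 of -2.73 ± 1.24 and Cpt1a of 0.39 ± 0.28. Without day 21 PBS library 4 the test called 7 below 0, Abcd2, Acaa1a, Acaa2, Acads, Cpt1b, Cpt2 and Hsd17b4, with 2.67% of all genes.

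Within PBS tissue the genes stood higher at day 21 than at day 7, and 2 of them passed the test. The libraries of the 2 days are separate, so time, the age of the mice and any batch cannot be told apart. Acaa1a rose, from 104, 107, 99.1 and 84.9 CPM at day 7 to 169.6, 156, 135 and 114 CPM at day 21, a log2 change of 0.54 ± 0.13 (SE, adjusted p = 0.0353) by edgeR. Acads rose, from 119, 109, 114 and 94.0 CPM at day 7 to 194, 200.04, 201 and 135 CPM at day 21, a log2 change of 0.74 ± 0.20 (SE, adjusted p = 0.0485) by edgeR. For both genes each day 21 PBS library lay above each day 7 PBS library. These 2 of 31 genes stood against 3.21% of all genes called in either direction and 0.694% called higher. The log2 change was above 0 for 29 of the 31 genes, with a median of 0.61 against 0.01 over all genes tested. The exceptions were Cpt1a and Acsl5, whose log2 changes were smaller than their standard errors. At an unadjusted p under 0.05, 24 of the 31 were higher, while 9.47% of all genes were. DESeq2 called 7 higher, Acaa1a, Acaa2, Acads, Acot2, Cpt2, Ppara and Slc27a2, with 2.31% of all genes. The groups did not overlap for 16 of the 31 genes, higher at day 21, and for 7.93% of all genes. Of the regulators, Ppara did not overlap between the days, 3.60, 4.42, 2.83 and 3.33 CPM at day 7 against 21.1, 17.6, 7.63 and 10.1 CPM at day 21, with a log2 change of 1.99 ± 0.59 (SE, adjusted p = 0.0714) by edgeR.

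These PBS libraries also differed in their other cells. The progenitor and fibroblast markers summed to 15721 to 23685 CPM at day 7 and to 3740 to 5696 CPM in day 21 libraries 1 to 3, and 4 of the 14 fell by the same test (Pdgfra, Smoc2, Dcn and Pi16). Mast cell markers summed to 48.4 to 83.3 CPM at day 7 and 17.9 to 35.9 CPM at day 21, and 4 of 6 fell. Of 9 endothelial markers 2 fell, and of 12 macrophage markers 1 fell. Of 6 tested genes on a liver and kidney list 3 rose, but that list summed to 1383 CPM or more in each library. Whether liver or kidney cells were present was not tested. Of all 13975 genes tested in this comparison, 352 were called lower and 97 higher. Calls in either direction dropped to 41 without day 21 PBS library 2 and to 65 without day 7 PBS library 4. The marker calls of this comparison are given for the fit with all libraries only. With the stromal score in the fit, the median log2 change of the 31 genes was 0.10 and 0 were called. Over all 13975 genes tested 14 were called with the score, against 449 without it. The score, centred over all libraries, was 0.43 to 0.94 in day 7 PBS and -1.76 to -1.30 in day 21 PBS libraries 1 to 3. Day 21 PBS library 4, at 0.64, lay within the day 7 PBS range. In LLC tissue the score was -0.18 to 0.79 at day 7 and -0.63 to 0.76 at day 21. Within PBS tissue the score thus followed the day except in library 4, so this fit cannot well tell the cell mix from the day. The calls of Acaa1a and Acads were also lost without any 1 of the 8 PBS libraries except day 21 library 4. They were lost too without day 7 LLC library 2, which is in neither group compared but is part of the shared fit. Acads alone lost its call without day 7 LLC library 1, 3 or 4 or day 21 LLC library 2. Without day 21 PBS library 4, 7 of the 31 genes were called higher, Abcd2, Acaa1a, Acaa2, Acads, Acot2, Cpt2 and Ppara, with 3.46% of all genes. Without day 21 LLC libraries 1 and 3, which are likewise in neither group, 17 of the 31 genes were called, with 4.68% of all genes higher. Without PBS library 4 as well, 26 were called higher, with 10.7% of all genes. Acaa1a was the 1 called with a muscle score (0.365% of all genes) or without the low count filter (0.333%). The comparison shares its day 21 PBS libraries with the day 21 tumour comparison, so the 2 comparisons are not independent.

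Within LLC tissue the log2 change from day 7 to day 21 was above 0 for 10 of the 31 genes and below 0 for 21, with a median of -0.19. By edgeR 0 of the 31 genes passed, 1.77% of all genes did, and DESeq2 called 1 of the 31, Cpt1b, lower, with 2.13% of all genes. At an unadjusted p under 0.05, 5 of the 31 were lower and 0 higher, while 7.71% of all genes were lower. The largest log2 change was that of Cpt1b, -2.20 ± 0.74 (SE, adjusted p = 0.129) by edgeR, followed by Acaa2 at -0.48 ± 0.19 (SE, adjusted p = 0.185) and Acads at -0.45 ± 0.17 (SE, adjusted p = 0.177). Without day 21 LLC libraries 1 and 3 the median was 0.10, with 21 genes above 0 and 1 called, Acsl1, higher, with 5.13% of all genes. Without PBS library 4 as well, 3 were called higher, Acsl1, Crat and Eci2, with 6.99% of all genes. With the stromal score 1 was called lower, Acaa2, with 1.22% of all genes.

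Further genes of the pathway came from lists that did not hold the 31. Of 33 other oxidation enzymes, 31 were tested at day 21, with 4 above 0, 27 below and a median log2 change of -0.39, and 0 passed the test. The smallest p-values among them were those of Decr2, a peroxisomal reductase for unsaturated chains, at -0.71 (adjusted p = 0.0638), and Acaa1b, the second peroxisomal thiolase, at -1.44 (adjusted p = 0.0751). In PBS tissue Decr2 rose from day 7 to day 21 (log2 change 0.50, adjusted p = 0.0451 by edgeR), 1 of 31 tested, a call lost under 16 of 29 alternatives. Of 9 genes of uptake and transport 7 lay below 0 at day 21, with a median of -0.41, led by Fabp5, a fatty acid binding protein, at -1.19 (adjusted p = 0.0691). Of 25 further regulators 18 lay below 0, with a median of -0.18. Esrra, the estrogen-related receptor alpha that drives oxidative genes, had -0.83 (adjusted p = 0.078), and Sirt3, a mitochondrial deacetylase, had -0.70 (adjusted p = 0.0884), all by edgeR.

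The PPAR-alpha targets outside the 31 did not share 1 direction. At day 7, 11 of 14 tested lay above 0, with a median of 0.35, and at day 21, 10 of 14 lay below 0, with a median of -0.36, and 0 passed at either day. Plin2, a lipid droplet coat protein, had a day 21 log2 change of -0.98 (adjusted p = 0.0634), and its difference between days passed, at -1.30 (adjusted p = 0.0415 by edgeR), a call lost under 20 of 31 alternatives. Of 18 genes of peroxisome formation and content, 17 lay below 0 at day 21, with a median of -0.40, and 0 passed. In PBS tissue 17 of the 18 lay above 0 from day 7 to day 21.

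In the authors' deposited table, made with a tool that the sources used here do not name, 2 of the 31 genes had an FDR under 0.05 at day 7, Pdk4 and Slc27a2, both higher, with 0.205% of its 21899 gene IDs. At day 21 the authors' deposited table gave 7 of the 31, all lower: Abcd2, Acaa1a, Acaa2, Acads, Cpt1b, Cpt2 and Hsd17b4, with 1.31% of all gene IDs. The smallest FDR in the authors' deposited table was 0.000639, that of Acaa2 at day 21.

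Several of the genes share exon sequence with others, between which reads are divided by estimation. Cpt1b shared 79.7% of its 31-base words with Gm44502, a read-through transcript, Etfb 47.3% with Gm45233, Fabp3 35.2% with Fabp3-ps1, Acot2 29.9% with Acot1, Hadhb 19.5% with Gm13910 and Acaa1a 16.9% with Acaa1b. Gm44502 was assigned 155 to 329 counts per library at day 7 and 130 to 290 at day 21. Cpt1b was assigned 6 to 453 and 15 to 420, so its levels, changes and ratio to Cpt1a rest on that division. Acadvl had 42.9% of its exon bases overlapping Dvl2 on the opposite strand, and the labelled library kit is not stated to mark strand. Acads, Acaa2, Cpt2 and Hsd17b4 shared 0 such words with any other gene.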

How the data were processed

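RNA of 18 inguinal fat libraries was sequenced after poly(A) selection with the NEBNext Ultra kit, per the labels' protocols. The submitters' processing notes name fastp 0.23.0, RSEM (no version) and the genome builds mm10 and GRCm38. The sources used here name no aligner and no annotation. The deposited counts are whole numbers and were taken as RSEM expected counts rounded by the authors. The deposited TPM columns are scaled by the authors for length and library total. The authors' deposited log2 ratios, p-values and FDR come from their own comparison and were used only where named.

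Two-sided quasi-likelihood tests of edgeR 4.0.16 (R 4.3.3) were run on the counts after filterByExpr and TMM scaling, with Benjamini-Hochberg adjustment at 0.05 over all genes tested (13445 at day 7, 13564 at day 21, 13975 in the fit of 18 libraries with 4 group means). Each day's tumour comparison used its 9 libraries. The SE was taken as the absolute log2 change over the root of its F statistic. Alternatives used DESeq2 1.42.0, limma 3.58.1 on log2(TPM + 1) and log2(TPM + 0.1), other filters and scalings, muscle or stromal scores as covariates, and fewer libraries. The code was tested on simulated counts. Groups came from the sample titles, and 0 per-sample columns were left unassigned. The 31 genes and all lists were chosen with earlier results of these data known. A gene's log2 change is printed singly only where it is at least its SE; of other lists at most 4 genes with the smallest p are named. Genome positions are from GENCODE vM21 on GRCm38. The results of some genes in the further pathway lists are not reported here.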

Additional observations from a re-analysis of the deposited data

Results flagged for a closer look

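Each gene's CPM was examined in each of the 4 groups, 124 gene and group pairs in all, for a highest or lowest library whose gap to its neighbour took up most of the group's range (Dixon's test at its 95% critical value). Of these, 14 passed, and chance alone passes about 1 in 20 groups. Libraries of a group share their RNA across genes, so the 14 are not independent.

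In day 7 LLC tissue library 5 stood far above the other 4 libraries for 8 genes: Slc25a20 (130.4 CPM), Crat (547 CPM), Acadm (604 CPM), Acadl (516 CPM), Acadvl (401 CPM), Hadha (489 CPM), Hadhb (644 CPM) and Eci1 (162 CPM). In day 7 PBS tissue library 4 stood far below the other 3 for 4 genes: Acadm (323 CPM), Echs1 (195 CPM), Etfa (199 CPM) and Etfb (133 CPM). Day 7 PBS library 3 stood far above the rest for Fabp3 (3.08 CPM). In day 21 PBS tissue library 4 stood far below the other 3 for Acads (135 CPM). The differences between the tumour effects at the 2 days passed the test for 0 of the 31 genes by edgeR, with 19 at an unadjusted p under 0.05 and 6 called by DESeq2.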

How the results depend on the processing

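The number of the 31 genes called at day 7 was 0 under all alternatives run. At day 21 it was 0 with all libraries by edgeR, 7 by DESeq2, 11 in 1 fit of all 18 libraries, 2 with a muscle score (0.391% of all genes called lower) and 5 once PBS library 4 and LLC libraries 1 and 3 were left out (1.77%). For the difference between days it was 0, against 6 by DESeq2, 1 with a muscle score (0.236% lower), 6 without those 3 libraries (2.62%) and 1 with a replicate block (0.273%). For day 21 against day 7 within PBS it was 2, against 7 by DESeq2, 1 without the low count filter (0.333% of all genes called higher), 0 by limma with either pseudocount, 1 with a muscle score (0.365%), 26 without those 3 libraries (10.7%), 17 without LLC libraries 1 and 3 (4.68%) and 0 with a stromal score. Within LLC it was 0, against 1 by DESeq2 (2.13% lower), 3 without the 3 libraries (6.99% higher), 1 without LLC libraries 1 and 3 (5.13% higher) and 1 with a stromal score (1.22% lower). Leaving out each library in turn gave 0 to 0 at day 7, 0 to 6 at day 21, 0 to 7 for the difference, 0 to 7 within PBS and 0 to 0 within LLC. Leaving out libraries also lowers their number, and the cause of these differences was not tested.

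Of the single log2 changes of at least their SE, those of 20 genes at day 7, 27 at day 21 and 27 for the difference, 8 values turned their sign. Without LLC libraries 1 and 3 at day 21, Crat had 0.0397 and Eci1 0.0145. Without PBS library 4 and LLC library 5 at day 7, Crat had -0.00558, Acads -0.0289, Acaa2 -0.0256, Eci1 -0.0693 and Etfa -0.0311. With a stromal score the difference of Eci2 was 0.0147. The fit with the replicate number as a block called 0 genes at day 7, 0 at day 21 and 1 for the difference (Acads). The samples share only a number: correlations of same-numbered libraries ran from -0.02 to 0.24 at day 7 and from -0.28 to 0.33 at day 21, and not every library correlated best with its own number. Depth limits Slc27a2, Fabp3 and Cpt1b, whose counts fell to 1, 0 and 6 in their lowest libraries.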
